A study of Ovis aries with 27 samples.

Results

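The 5 classical markers of myeloid cells CD14, LYZ, ITGAM, ITGB2 and FCER1G were followed in the heart septum of fetal sheep. Their probes were found by gene name, RefSeq accession or description among the non-control features of a 1-colour Agilent array, which gave 10 probes for the 5 genes, out of 15008 probes and 967 named genes in all. RNA from the septum of 27 fetuses was hybridised, 1 array per fetus, after a continuous infusion of the ewe with cortisol (1 mg/kg/d) or with vehicle. The groups were fetuses of cortisol-infused ewes at about 140 d of gestation (n = 7), fetuses of vehicle-infused ewes at about 140 d (n = 8), fetuses of cortisol-infused ewes at about 130 d (n = 6) and fetuses of vehicle-infused ewes at about 130 d (n = 6). They are called cortisol and control below. The older fetuses were sampled between 139 and 144 d after an infusion of about 25 d, and the younger ones between 129 and 131 d after about 10 d, though the growth protocol in the labels of all 27 samples has cortisol start near 115 d. The older controls came from 7 ewes, so a pair of them shared a ewe, and each fetus was treated as independent. The cortisol was given to the ewe and not to the fetus. The 2 ages were separate cohorts, so the age of the fetus, its cohort and how long the ewe was infused cannot be told apart.

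Myeloid cells are the monocytes, macrophages, granulocytes and dendritic cells that arise from a common progenitor. The fetal heart holds resident macrophages, seeded early from yolk sac and fetal liver, which clear debris and take part in shaping vessels and conduction tissue, and monocytes and neutrophils reach it through the blood. Glucocorticoids are known to change both the traffic of these cells and the genes they transcribe. The septum is a mixed tissue, so a lower signal from fewer cells of a type and one from less RNA per cell cannot be told apart.

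Each value is a level on the log2 scale, log2 of the processed spot intensity minus the 75th percentile of the same array, so that 0 is the brightness of a probe at that percentile. The 75th percentile lay between 602 and 1273 intensity units over the arrays, and 77.0 to 87.0% of spots were well above background. Cortisol 140 d replicate 4 stood apart, with the lowest 75th percentile and 17.3% of tested probes over 1 log2 unit from the mean of the rest of its group, against 2.29 to 10.1% on the other 26 arrays. Many of the results below are therefore also given without it. The test, limma in a single fit of the 4 groups, took in all 12770 probes with 6 or more arrays well above background, and a call means an adjusted p under 0.05 (Benjamini-Hochberg over all of them). A gene is represented by its brightest tested probe, and values of its other probe are named as such.

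Detection was good for 4 of the markers. CD14, LYZ, ITGB2 and FCER1G were well above background on all 27 arrays with their brightest probe. ITGAM was well above background on 9 of 27 arrays with its brightest probe and on 1 with the other, which was not tested. The 60-base probe sequences of the genes are shown because the probes of a gene overlap, so that 2 probes are less than 2 independent measurements. The FCER1G probes and the brightest ITGB2 probe are not printed. Capitals mark the bases that both probes of a gene share.
CD14 brightest probe: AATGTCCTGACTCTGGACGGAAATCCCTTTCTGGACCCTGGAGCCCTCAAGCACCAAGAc
CD14 other probe: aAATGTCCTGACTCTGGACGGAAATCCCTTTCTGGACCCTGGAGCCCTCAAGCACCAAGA
LYZ brightest probe: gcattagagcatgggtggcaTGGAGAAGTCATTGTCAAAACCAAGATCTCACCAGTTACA
LYZ other probe: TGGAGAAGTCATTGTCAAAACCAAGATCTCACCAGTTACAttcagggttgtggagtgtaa
ITGAM brightest probe: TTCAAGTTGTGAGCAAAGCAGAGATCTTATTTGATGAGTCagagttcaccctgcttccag
ITGAM other probe: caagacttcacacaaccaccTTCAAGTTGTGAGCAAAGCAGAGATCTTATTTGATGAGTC
ITGB2 other probe: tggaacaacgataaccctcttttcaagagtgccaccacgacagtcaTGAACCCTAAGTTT
The CD14 and FCER1G pairs share 59 of 60 bases, the LYZ and ITGAM pairs 40 and the ITGB2 pair 14. Over the 27 arrays the 2 probes of a gene correlated at r = 0.995 for FCER1G, 0.975 for ITGB2, 0.959 for LYZ, 0.919 for CD14 and 0.332 for ITGAM. The ITGB2 pair, which shares the fewest bases, thus moved together almost as closely as the FCER1G pair, and the ITGAM pair, mostly below background, did not. Levels of different genes were not set against each other, since probes differ in brightness for the same amount of RNA.

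The first question is whether myeloid marker RNA in the septum of controls, whose ewes were infused with vehicle, differed between the ages. In controls, ITGB2, FCER1G and LYZ fell at 140 d relative to 130 d by 2.03-fold to 2.65-fold, while CD14 and ITGAM did not pass the test. These are 3 of the 5 markers, all lower, in a comparison in which 19.1% of all probes were called and 9.35% were called lower and 9.77% higher. Without cortisol 140 d replicate 4 in the fit the same 3 passed. Their limma adjusted p values were then 0.000626 for ITGB2, 0.00204 for FCER1G and 0.00942 for LYZ. Of all 12770 probes 3205 were then called, in place of 2442. The median difference of the 5 markers was -1.02 on the log2 scale, and that of all tested probes was -0.01.

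ITGB2 is the beta chain (CD18) common to the leukocyte integrins, which carry white cells across vessel walls. Its level was lowest at -2.78, median -2.45 and highest at -2.24 in 140 d controls, against -2.19, -1.45 and -0.45 in 130 d controls. All 8 of the older controls lay below all 6 of the younger ones, and the groups did not overlap. Complete separation in this direction was seen for 2.2% of probes in this comparison. The log2 difference of ITGB2 was -1.02 ± 0.24 (SE), with a limma adjusted p of 0.00462, a 2.03-fold lower level at 140 d. With the other ITGB2 probe the ranges were apart as well, and the difference was -1.35 ± 0.26 with a limma adjusted p of 0.00108.

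FCER1G is the signalling chain shared by Fc receptors of macrophages, neutrophils and mast cells, and it carries the activating signal when antibody is bound. The lowest, median and highest levels were -3.10, -1.88 and -1.50 in 140 d controls, against -1.58, -0.92 and 0.36 in 130 d controls. Of the 8 older controls 7 lay below every younger one, so the ranges just overlapped. The log2 difference was -1.16 ± 0.31 (limma adjusted p = 0.0123), or 2.23-fold lower at 140 d. The ranges of the other FCER1G probe did not overlap, with a difference of -1.19 ± 0.32 (limma adjusted p = 0.0117).

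LYZ encodes lysozyme, the enzyme with which macrophages and neutrophils break the cell wall of bacteria. Its levels were -5.60, -4.27 and -3.84 (lowest, median and highest) in 140 d controls, against -4.03, -3.23 and -1.49 in 130 d controls. Of the 8 older controls 6 were below every younger one, and the younger controls were widely spread, with an SD of 1.06. The log2 difference was -1.41 ± 0.41 (limma adjusted p = 0.0178), 2.65-fold lower at 140 d. The other LYZ probe gave -2.11 ± 0.52 (limma adjusted p = 0.00695), with 5 of 7 cortisol and 6 of 8 control arrays at 140 d well above background and all 12 arrays at 130 d.

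CD14 is the co-receptor that hands bacterial lipopolysaccharide to TLR4 on monocytes and macrophages. Its levels in controls were -2.84, -2.38 and -2.04 at 140 d, against -2.64, -2.34 and -2.08 at 130 d, given as lowest, median and highest. The ranges lay over each other almost entirely. The log2 difference was -0.10 ± 0.16, with a 95% interval from -0.43 to 0.23 and a limma adjusted p of 0.704. The other CD14 probe gave -0.08 ± 0.19 (limma adjusted p = 0.809). The interval of the brightest probe does not reach the -1.02 to -1.41 of the 3 markers that fell, though no test of one gene's difference against another's was made.

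ITGAM (CD11b) is the alpha chain that pairs with ITGB2 to form complement receptor 3 on neutrophils and macrophages. It was well above background on 2 of 8 controls at 140 d and on 4 of 6 at 130 d, so most of its values only bound its level. The measured levels were -8.57, -6.85 and -4.98 at 140 d, against -6.83, -6.16 and -4.71 at 130 d. The log2 difference of -0.84 ± 0.53 (95% interval -1.93 to 0.24, limma adjusted p = 0.272) did not pass the test, and a fall as large as that of ITGB2 lies inside its interval.

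**Figure D1:**
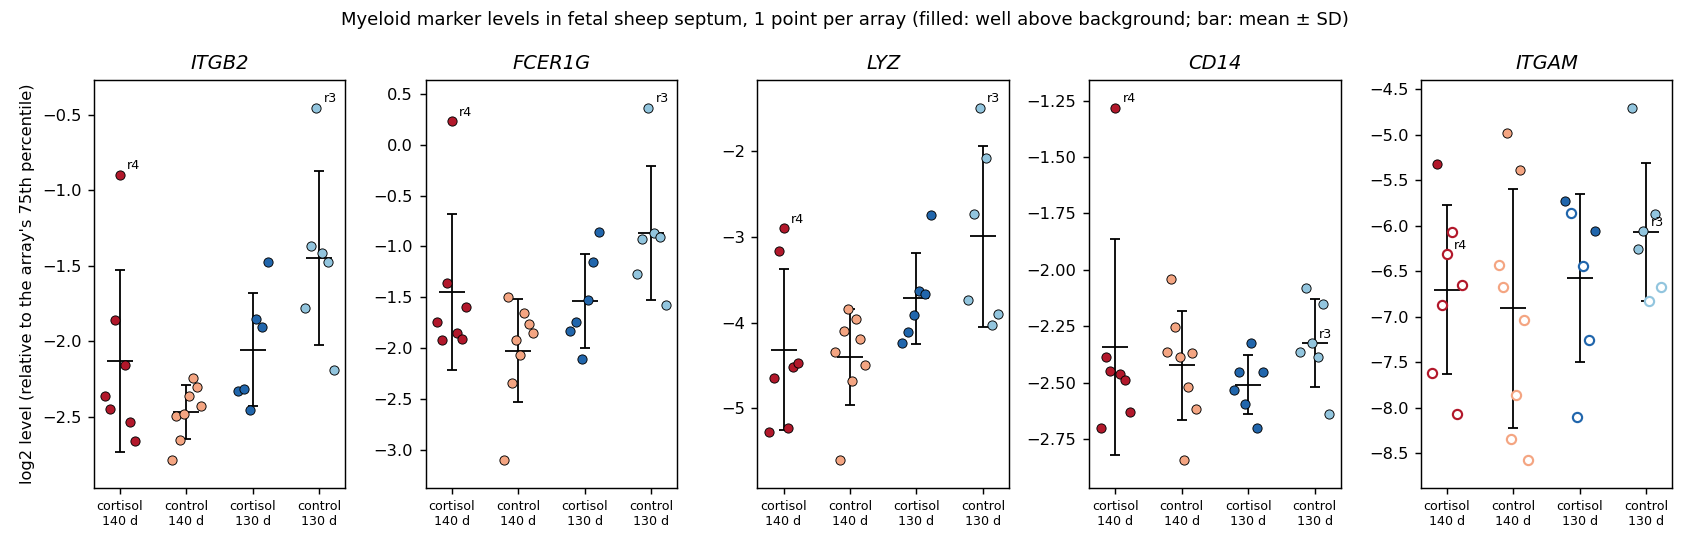
Levels of the 5 markers in the septum, 1 point per fetus, as log2 of the processed intensity relative to the array's 75th percentile (y axis, own scale per gene), in the 4 groups (x axis), with the group mean and SD as bars and arrays not well above background as open points. In ITGB2, all 140 d controls lie below all 130 d controls, and replicate 4 of cortisol 140 d (r4) lies at -0.90 for ITGB2, 0.23 for FCER1G and -1.28 for CD14, above the rest of its group.

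One younger control carried part of these differences. Control 130 d replicate 3 was the highest of the 27 arrays for ITGB2, FCER1G and LYZ, by 1.19, 1.47 and 1.80 log2 units above the mean of the rest of its group, while its CD14 differed by -0.00 and its ITGAM by 0.00. Without it, ITGB2 differed by -0.82 (limma adjusted p = 0.0177) and FCER1G by -0.91 (0.0466) between the ages in controls. LYZ then differed by -1.11 with a limma adjusted p of 0.0641, so its call was lost, while the other LYZ probe still passed at -1.79 (0.0266). With both control 130 d replicate 3 and cortisol 140 d replicate 4 left out, an alternative added after the data were seen, all 3 passed, at -0.82 for ITGB2, -0.91 for FCER1G and -1.11 for LYZ (limma adjusted p = 0.00166, 0.00674 and 0.0354). The same array had the highest summed level of the 7 measured interferon-induced genes, 83.3 times the 75th percentile intensity, against a median of 11.3 in its group.

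The arrays lay on 5 slides, of which slides 2, 3 and 4 held controls of both ages. Within these slides ITGB2 differed by -1.07, -1.63 and -0.53, FCER1G by -1.20, -1.88 and -0.82 and LYZ by -1.74, -2.18 and -0.72. The sign was the same on each slide, with at most 2 controls per age and slide. None passed the test within a slide, where 3, 5 and 2 of all 12770 probes did. The background setting changed the calls. With normexp and an offset of 50 intensity units in place of the scanner's own subtraction, only FCER1G passed, at -0.97 (limma adjusted p = 0.0493). ITGB2 was then at -0.72 (0.0854) and LYZ at -0.57 (0.467). An added offset makes log2 differences of dim probes smaller, and its part in these values was not tested. Under normexp the median of all probes in this comparison was 0.15.

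In fetuses of cortisol-infused ewes none of the 5 markers passed the test between 140 d and 130 d, while 13.5% of all probes did (8.52% lower and 4.94% higher). ITGB2 had levels of -2.66, -2.36 and -0.90 (lowest, median and highest) with cortisol at 140 d, against -2.45, -2.11 and -1.48 with cortisol at 130 d. FCER1G had -1.92, -1.75 and 0.23 at 140 d, against -2.11, -1.63 and -0.86 at 130 d. LYZ had -5.27, -4.52 and -2.90 at 140 d, against -4.24, -3.79 and -2.74 at 130 d. The groups overlapped for all 3, and for LYZ 5 of the 7 older fetuses lay below every younger one.

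The log2 differences between the ages with cortisol were -0.08 ± 0.24 for ITGB2, 0.09 ± 0.32 for FCER1G, -0.60 ± 0.42 for LYZ, 0.17 ± 0.16 for CD14 and -0.13 ± 0.54 for ITGAM. Their 95% intervals reached from -0.58 to 0.43 for ITGB2, from -0.58 to 0.75 for FCER1G and from -1.46 to 0.27 for LYZ. The other probes gave -0.02 for ITGB2, 0.08 for FCER1G, -0.86 for LYZ and 0.30 for CD14, and none of them passed. Cortisol 140 d replicate 4 weighed on these values. Without it the differences were -0.28 for ITGB2, -0.19 for FCER1G, -0.83 for LYZ (limma adjusted p = 0.157), -0.01 for CD14 and -0.19 for ITGAM. All 5 were then negative with the brightest probes, and still none passed. The other CD14 probe was at 0.13 without that array.

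**Figure D2:**
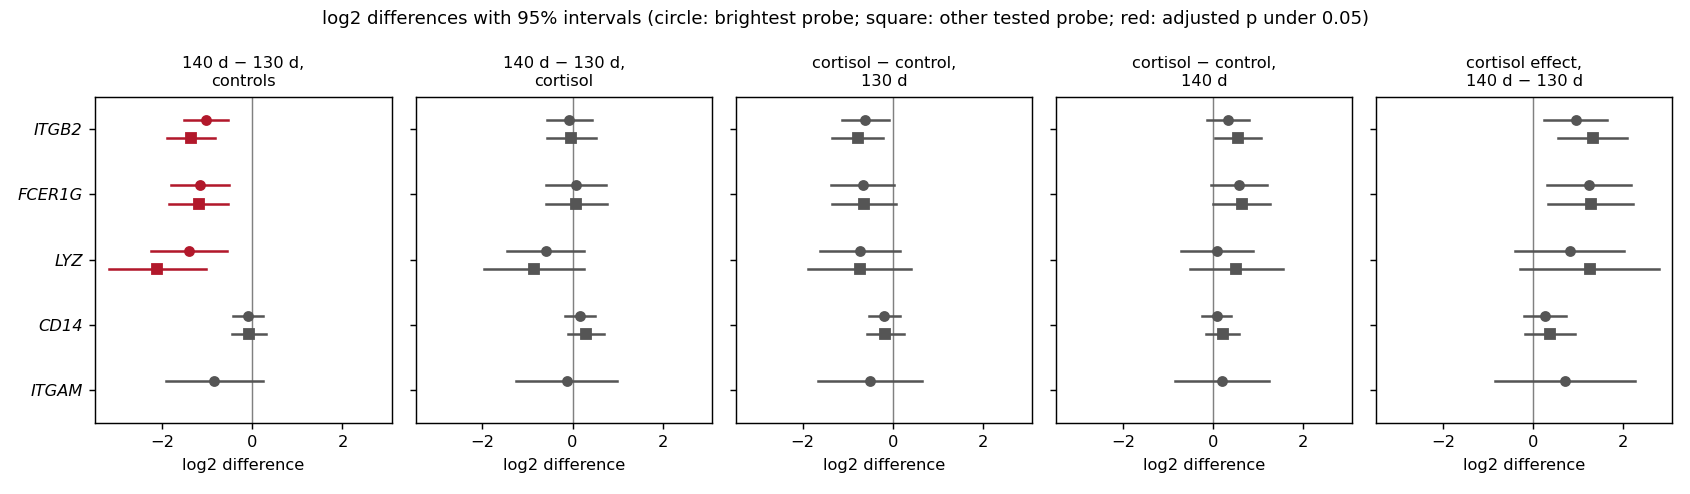
log2 differences (x axis) with their 95% intervals for the 5 markers (y axis) in the 5 comparisons, with circles for the brightest probe, squares for the other tested probe and red for an adjusted p under 0.05. Calls are seen only for 140 d minus 130 d in controls, for both probes of ITGB2, FCER1G and LYZ.

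The second question is whether cortisol given to the ewe changed the markers at either age. At 130 d all 5 markers had lower means with cortisol than in controls, but none passed the test, and neither did any of the 12770 probes (0.0%). Without adjustment, 455 probes had a limma p under 0.05, and ITGB2 was the only one of the 5 markers among them with its brightest probe. Without cortisol 140 d replicate 4 in the fit, FCER1G also had an unadjusted limma p under 0.05 (0.0205), with ITGB2 at 0.00692. Without control 130 d replicate 3 as well, these were 0.0853 and 0.0277. In both fits 0 of the 12770 probes passed after adjustment. The median difference of the markers was -0.61, and that of all tested probes was 0.01.

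ITGB2 levels at 130 d were -2.45, -2.11 and -1.48 with cortisol, against -2.19, -1.45 and -0.45 in controls. All 6 fetuses of cortisol-infused ewes lay below the control mean and 3 lay below every control, so the ranges overlapped. The log2 difference was -0.61 ± 0.25 (95% interval -1.13 to -0.09, limma adjusted p = 1.0). Its other probe gave -0.78 ± 0.28, also with an adjusted p of 1.0. Without control 130 d replicate 3 the difference was -0.41.

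FCER1G at 130 d had levels of -2.11, -1.63 and -0.86 with cortisol, against -1.58, -0.92 and 0.36 in controls, and 5 of 6 fetuses with cortisol lay below the control mean. Its difference was -0.67 ± 0.34 (95% interval -1.36 to 0.02, and -1.23 to -0.11 without cortisol 140 d replicate 4 in the fit). LYZ had levels of -4.24, -3.79 and -2.74 with cortisol, against -4.03, -3.23 and -1.49 in controls, a difference of -0.72 ± 0.44 (95% interval -1.62 to 0.17). Both shrank without control 130 d replicate 3, to -0.42 each. CD14 at -0.18 ± 0.17 and ITGAM at -0.51 ± 0.56 were also short of the test. The other probes gave -0.64 for FCER1G, -0.73 for LYZ and -0.16 for CD14. On slides 2, 3 and 4 the differences were -0.75, -1.22 and 0.14 for ITGB2, -0.69, -1.56 and 0.24 for FCER1G and -0.94, -1.99 and 0.76 for LYZ, so the sign was not the same on each slide.

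At 140 d the means of all 5 markers were higher with cortisol than in controls, and again none passed, nor did any of the 12770 probes (0.0%, with 726 at an unadjusted limma p under 0.05). The median difference of the markers was 0.21, against -0.04 over all tested probes. FCER1G differed most. Its levels were -1.92, -1.75 and 0.23 with cortisol, against -3.10, -1.88 and -1.50 in controls, and all 7 fetuses with cortisol lay above the control mean. The log2 difference was 0.57 ± 0.30 (95% interval -0.05 to 1.19, limma adjusted p = 0.808).

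ITGB2 at 140 d had levels of -2.66, -2.36 and -0.90 with cortisol, against -2.78, -2.45 and -2.24 in controls, and a difference of 0.34 ± 0.23. LYZ differed by 0.09 ± 0.39, ITGAM by 0.21 ± 0.50 and CD14 by 0.08 ± 0.15. The other probes gave 0.64 for FCER1G, 0.55 for ITGB2, 0.52 for LYZ and 0.21 for CD14, and none passed. With the brightest CD14 probe, 5 of the 7 fetuses with cortisol lay below the control mean, and the positive difference came with 1 array, replicate 4. With the other CD14 probe 5 of the 7 lay above the control mean. Without cortisol 140 d replicate 4 the differences were 0.29 for FCER1G, 0.13 for ITGB2, 0.14 for ITGAM, -0.10 for CD14 and -0.15 for LYZ. The direction of CD14 and LYZ thus turned with the brightest probes. With the other probes it did not, since CD14 was at 0.04 and LYZ at 0.19 without that array.

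That array moved with several other marker lists, as the summed level of each list in multiples of the 75th percentile intensity shows. Cortisol 140 d replicate 4 had the highest sum of its group for 6 neutrophil granule genes, 14.5 against a group median of 2.53, for 5 fibroblast genes, 337 against 147, and for 5 endothelial genes, 6.99 against 4.44. It was also highest for 7 T and NK cell genes (0.649 against 0.479), the B cell gene (0.0998 against 0.0272) and 7 interferon-induced genes (8.85 against 5.93). Not all sums were high: the 31 other myeloid genes summed to 70.0 against a group median of 72.8, and 2 red blood cell genes to 13.4 against 17.0. A sum follows the brightest genes of its list and can hide the others. In controls the sum of the other myeloid genes had a median of 66.8 at 140 d, against 63.7 at 130 d. Yet 24 of these 31 genes had negative differences in that comparison. The sum therefore does not show how most of these genes stood on replicate 4. The array had the lowest level of myoglobin (MB), the only one of 19 cardiomyocyte markers with a named probe, at 182 against a group median of 348. The part of these cells in the marker values of that fetus was not tested.

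Whether the effect of cortisol itself differed between the ages was tested as the difference of the 2 cortisol effects, 140 d minus 130 d. It was positive for all 5 markers and passed for none, as for all 12770 probes (0.0%, with 743 at an unadjusted limma p under 0.05). It was 1.24 ± 0.45 for FCER1G (95% interval 0.31 to 2.17, limma adjusted p = 0.563) and 0.95 ± 0.34 for ITGB2 (0.25 to 1.64, limma adjusted p = 0.560). The other ITGB2 probe gave 1.33 ± 0.37 (limma adjusted p = 0.332). LYZ was at 0.81 ± 0.58, ITGAM at 0.71 ± 0.76 and CD14 at 0.27 ± 0.23. The other probes of FCER1G, LYZ and CD14 gave 1.28, 1.25 and 0.38. Without cortisol 140 d replicate 4 the values were 0.96 for FCER1G, 0.74 for ITGB2, 0.57 for LYZ, 0.65 for ITGAM and 0.09 for CD14. Without control 130 d replicate 3 they were 1.00 for FCER1G, 0.75 for ITGB2 and 0.51 for LYZ, and without both arrays 0.72, 0.54 and 0.27. Within slides 2, 3 and 4 it was 1.34, 2.89 and -0.09 for FCER1G, 1.23, 2.26 and -0.32 for ITGB2 and 2.01, 1.89 and -0.60 for LYZ, so the sign was not the same on each slide. An age difference that passed in controls and not with cortisol is therefore not shown to differ between the arms.

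The levels can also be read across the 4 groups. Mean ITGB2 was -2.13 ± 0.60 with cortisol at 140 d, -2.47 ± 0.18 in controls at 140 d, -2.05 ± 0.37 with cortisol at 130 d and -1.45 ± 0.58 in controls at 130 d (SD). Mean FCER1G was -1.45 ± 0.77, -2.02 ± 0.50, -1.54 ± 0.46 and -0.87 ± 0.66 in the same order of groups, and mean LYZ was -4.31 ± 0.94, -4.40 ± 0.56, -3.72 ± 0.53 and -2.99 ± 1.06. In all 3 the younger controls were highest and the older controls lowest, with both cortisol groups between. Without cortisol 140 d replicate 4, mean LYZ with cortisol at 140 d was -4.55, below the older controls. With the other LYZ probe it was -5.18 without that array, above the older controls at -5.37. Of the pairs of groups tested, only the younger and older controls differed by the test. The ranges of neighbours in the order overlapped for all 3 genes. Mean CD14 kept within -2.51 ± 0.13 (cortisol 130 d) and -2.32 ± 0.20 (control 130 d) over the 4 groups.

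To see whether the markers varied together between fetuses of one group, each level was taken relative to its group mean and the 10 pairs of markers were correlated over the 27 arrays, with 100000 permutations within groups and adjustment over the 10 pairs. ITGB2 and FCER1G followed each other most closely, with Pearson r = 0.906 (permutation p = 1e-05, adjusted 0.0001, the smallest they can give) and Spearman rho = 0.857 (adjusted permutation p = 0.0002). LYZ followed ITGB2 at r = 0.724 and rho = 0.664 (permutation p = 0.00029 and 0.00071, adjusted 0.00145 and 0.00355) and FCER1G at r = 0.603 and rho = 0.531 (permutation p = 0.00293 and 0.00669, adjusted 0.00977 and 0.0223). Without the 2 arrays farthest from the median these r values were 0.789, 0.559 and 0.347, so the relation of LYZ to FCER1G rested largely on those arrays. Within slides 2, 3 and 4, r was 0.655, 0.982 and 0.969 for ITGB2 with FCER1G, 0.611, 0.748 and 0.743 for LYZ with ITGB2, and -0.141, 0.833 and 0.763 for LYZ with FCER1G. The relation of LYZ to FCER1G therefore did not hold on slide 2. The other 7 pairs, each with CD14 or ITGAM, did not pass after adjustment. CD14 with ITGB2 was at r = 0.569 (permutation p = 0.0297, adjusted 0.0742) and rho = 0.291, and ITGAM with its partner chain ITGB2 at r = 0.070. Values of one array share their RNA, labelling and scaling.

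**Figure D3:**
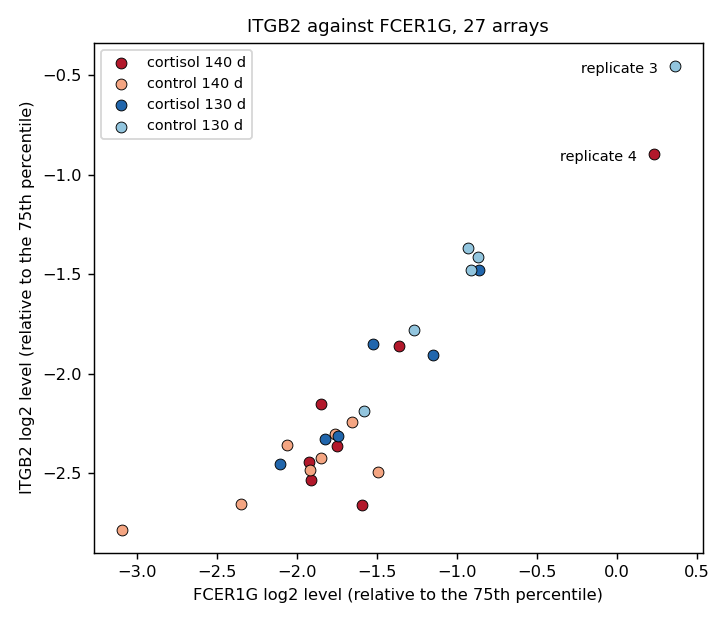
ITGB2 level (y axis) against FCER1G level (x axis) on the 27 arrays, both as log2 relative to the array's 75th percentile, coloured by group. Higher FCER1G goes with higher ITGB2 over the points, though they do not lie on 1 line. Control 130 d replicate 3 and cortisol 140 d replicate 4 lie highest for both genes.

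By the same measure, the named genes most like each marker were sought among 786 others over the 27 arrays, as a description. Closest to ITGB2 were FLAP, the activating protein of leukotriene synthesis (r = 0.932), CD86, a co-stimulatory molecule of antigen-presenting cells (r = 0.931), and FCGR1A, the high-affinity IgG receptor (r = 0.913). Closest to FCER1G were CD86 (r = 0.937), the complement receptor gene C5aR (r = 0.880) and FLAP (r = 0.857). LYZ lay closest to FCGR2B, an inhibitory IgG receptor (r = 0.758), the class II antigen gene OVAR-DQA1 (r = 0.710) and FLAP (r = 0.705). CD14 lay closest to the chemokine CXCL8 (r = 0.830), which is on the list of other myeloid genes below, the cyclin CCND3 (r = 0.810) and the immediate early factor JUNB (r = 0.794). ITGAM, near background, had MMP13 (r = 0.639), UMPS (r = 0.617) and NKX2.2 (r = 0.573). Without control 130 d replicate 3 and cortisol 140 d replicate 4, r came to 0.599, 0.544 and 0.455 for CD14, in the same order of genes. For LYZ it came to 0.646, 0.558 and 0.514, and for FCER1G to 0.863, 0.744 and 0.699. ITGB2 had 0.857, 0.838 and 0.816 without these arrays, and ITGAM 0.639, 0.627 and 0.570.

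Of 104 other genes of myeloid cells, 36 were on the array under a symbol used here and 31 were tested. In controls 9 of the 31 fell at 140 d relative to 130 d and 0 rose, 24 of 31 differences were negative, and the median was -0.47. Over all probes 9.35% were called lower and 9.77% higher in this comparison, with a median of -0.01. The 9 included the receptors FCGR1A (-1.91 ± 0.44) and CD40 (-1.05 ± 0.27), the co-stimulatory CD86 (-1.28 ± 0.34), the adhesion molecule ICAM1 (-1.33 ± 0.33), to which ITGB2 integrins bind, the protease of antigen processing CTSS (-1.37 ± 0.30), the oxidase subunit CYBA (-0.58 ± 0.17), and the cytokines IL10 (-1.76 ± 0.27), TNF (-1.50 ± 0.35) and IL18 (-1.50 ± 0.38). Their limma adjusted p values lay between 0.000228 for IL10 and 0.0200 for CYBA. IL10 was well above background on 4 of 8 controls at 140 d and on all 6 at 130 d, so its level at 140 d is partly a bound. Not all probes bore this out: a second CD86 probe was at -0.60 (adjusted p = 0.332) and another IL18 probe at 0.07. ICAM1, TNF, IL10 and IL18 are also made by cells other than myeloid ones. Without control 130 d replicate 3 the same 9 genes passed.

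CTSS, cathepsin S, gives the pattern in full. Its levels were -1.87, -1.59 and -1.04 (lowest, median and highest) in 140 d controls, against -1.03, -0.38 and 1.62 in 130 d controls, and those ranges were just apart. With cortisol its levels were -1.76, -1.33 and 0.13 at 140 d, against -1.22, -0.88 and -0.23 at 130 d, a difference of -0.29 ± 0.31. FCGR1A had -6.13, -5.62 and -5.07 in 140 d controls, against -5.70, -3.84 and -1.40 in 130 d controls, which overlapped.

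With cortisol 5 of the 31 genes changed between the ages, with a median of -0.09, where 13.5% of all probes were called and their median was -0.04. The share of the list is thus near that of all probes. Those that fell at 140 d relative to 130 d were 4, NOS2, the inducible nitric oxide synthase (-2.35 ± 0.60, limma adjusted p = 0.0102), TNF (-1.33 ± 0.36, 0.0163), CD40 (-0.93 ± 0.28, 0.0262) and the integrin chain ITGA4. NOS2 and TNF each cleared background on 5 of the 7 older fetuses. ITGA4 cleared background on 0 of 7 arrays at 140 d and on all 6 at 130 d, so its level was at least 1.55-fold lower at 140 d (limma adjusted p = 0.0124), taking the dim arrays at no less than the lowest signal well above background. The toll-like receptor TLR6 rose (0.46 ± 0.15, limma adjusted p = 0.0344) and so did its second probe (0.51, 0.0165), while the remaining probe was at 0.10 (0.806). With the brightest probes, TNF and CD40 thus passed in both arms. A second ITGA4 probe also passed in both, at -1.37 in controls and -1.24 with cortisol (limma adjusted p = 0.0160 and 0.0406). So did a second CYBA probe, at -0.59 and -0.58 (0.0300 and 0.0455). Without cortisol 140 d replicate 4 the count was 8 of 31, the same 5 with IL10, IL18 and CYBA, chosen here after their values were seen. Calls rose among all probes too, to 2419 of 12770 without that array from 1719 with it. Cortisol itself changed 0 of the 31 genes at either age by limma, with 3 at an unadjusted p under 0.05 at 130 d and 1 at 140 d. The smallest p values were those of TLR7 (-0.68 ± 0.20), ICAM1 (-0.97 ± 0.35) and IL10 (-0.79 ± 0.29) at 130 d, and of ICAM1 (0.77 ± 0.31) at 140 d. For the difference of the cortisol effects 0 of 31 passed, with ICAM1 at 1.73 ± 0.47 (limma adjusted p = 0.316).

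**Figure D4:**
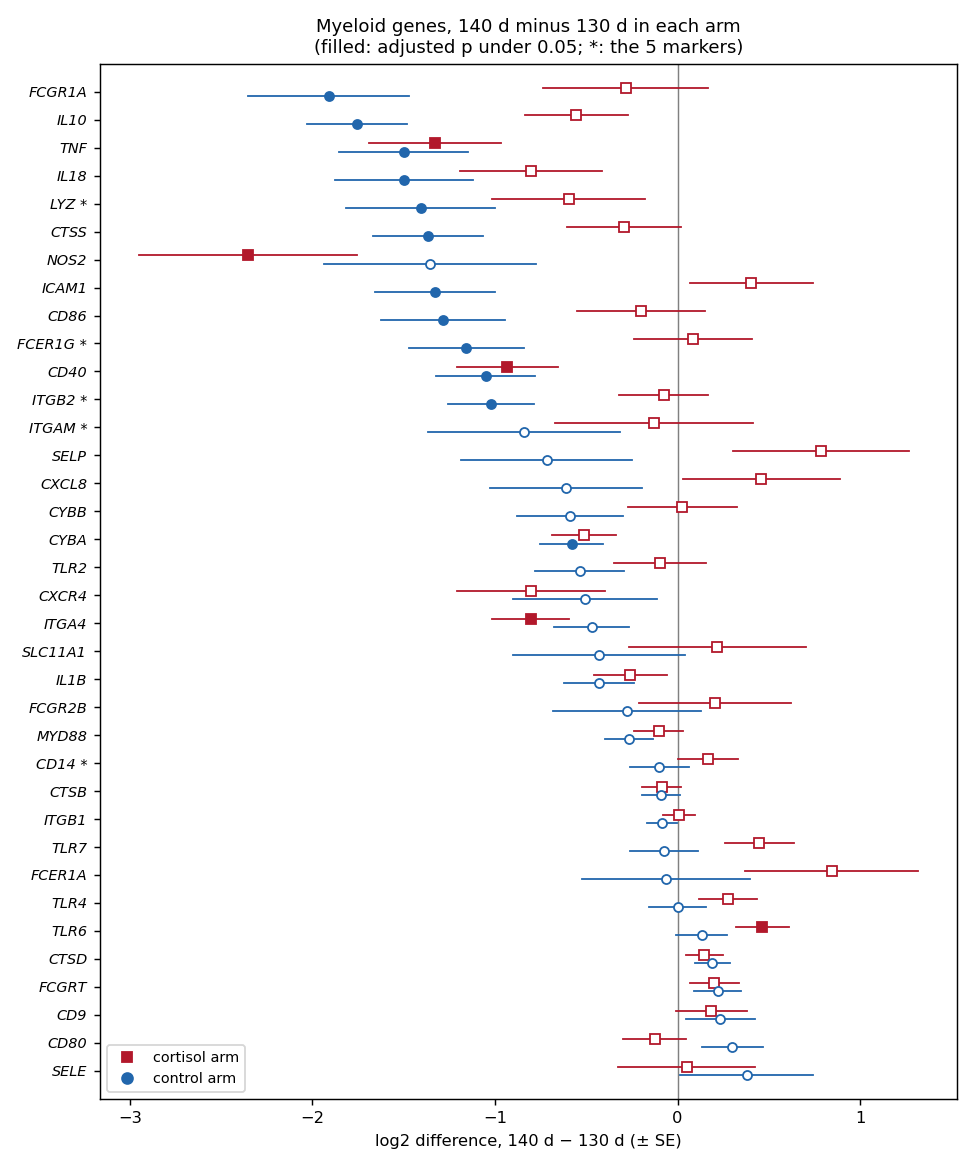
log2 differences between 140 d and 130 d (x axis, with SE) of the 5 markers (starred) and 31 other myeloid genes (y axis), with squares for the cortisol arm and circles for the control arm, filled where the adjusted p was under 0.05. In the control arm 12 of the 36 genes are filled, all left of 0, and in the cortisol arm 5 are, of which TLR6 lies right of 0.

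Lists of other cells and states were followed beside the markers, since the septum holds them too. In controls at 140 d relative to 130 d all 7 measured interferon-induced genes fell (median -1.66), the chemokine CXCL10 by the most with a difference of -4.49 ± 0.91, and both red blood cell genes fell, HBB, the beta globin, and AHSP, which stabilises alpha globin, the second with a difference of -3.26 ± 0.70. Of 6 neutrophil granule genes CATHL1B fell (-2.55 ± 0.74), with all 6 differences negative and a median of -1.61. Of 7 T and NK cell genes LCK fell (-1.26 ± 0.40), and of 5 fibroblast genes COL3A1 fell (-0.59 ± 0.21). With 9.35% of all probes called lower, 1 gene of a list of 5 to 7 is near that share. None of 5 endothelial genes passed, nor the B cell gene CR2 or the mast cell gene FCER1A. The cardiomyocyte gene MB rose (0.48 ± 0.15, limma adjusted p = 0.0282).

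In sums, the interferon-induced genes had a range of 1.78 to 9.17 times the 75th percentile intensity in 140 d controls, against 8.20 to 83.3 in 130 d controls. The neutrophil granule genes had 0.236 to 3.33 at 140 d, against 1.61 to 9.38 at 130 d, with MMP9 not well above background on any 140 d control. The red blood cell genes had 3.02 to 28.0 at 140 d, against 16.8 to 56.4 at 130 d, and the T and NK cell genes 0.454 to 0.774, against 0.513 to 0.868. Of these lists, the measured interferon-induced and red blood cell genes all fell in the same comparison as ITGB2, FCER1G and LYZ, as did CATHL1B among the neutrophil granule genes, and their part in the fall of the markers was not tested.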

How the data were processed

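Septum RNA of 27 fetuses was labelled with Cy3 and hybridised to 1-colour arrays. The submitters' processing notes name Agilent Feature Extraction, version 10.1.1.1. The deposited scanner files hold a processed spot intensity that, per the file headers, had its background subtracted and was detrended, with no normalization between arrays. Their flags for spots well above background, saturated or outlying were used as the authors deposited them, and no spot was saturated (0). The authors also deposited a table of log2 values, in which every array is the log2 processed intensity shifted by 1 constant (column medians 0.0864 to 0.121). What that constant is based on is not given in the sources used here.

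Outlying spots were dropped, spots of a probe averaged, and log2 values taken relative to the array's 75th percentile. Of 15008 probes, 12770 were tested 2-sided and without a batch term in R 4.3.3 with limma 3.58.1 (lmFit, eBayes). Of these, 1218 were named for 803 genes from the files or sheep RefSeq accessions, and 83 had a missing value on some array. Correlations used Python 3.11.15 with SciPy 1.17.1. The fit was tested on simulated data. Standard errors are abbreviated SE. The precision is limited by 6 to 8 arrays a group.

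The 5 members, the list of other myeloid genes and the cell lists were chosen with earlier results of these data known. All 5 members are named, as are other myeloid genes past the threshold or among the 3 smallest p values of a comparison, and the 3 genes most like each member. CTSS was shown in full after its values were seen. Alternatives were another background correction, other scalings, the authors' table, other filters on dim probes, slide and replicate number as blocks, single slides, fewer groups, the mean of a gene's probes, a robust fit and each array left out in turn.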

Additional observations from a re-analysis of the deposited data

Results flagged for a closer look

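Within each group of 6 to 8 arrays, the highest and lowest level of each marker were set against the rest by Dixon's criterion, in 20 sets of values, of which chance alone marks about 1 in 20. There were 3 values beyond it, on 2 arrays. CD14 on cortisol 140 d replicate 4 had a log2 level of -1.28, against -2.70 to -2.39 on the other 6 arrays of its group, a gap of 0.780 of the range. FCER1G on the same array was at 0.23, against -1.92 to -1.36 on the others (0.739 of the range). FCER1G on control 130 d replicate 3 was at 0.36, against -1.58 to -0.87 on the others (0.636 of the range). The first array lay above the mean of the rest of its group for all 5 markers, by 0.45 for ITGAM up to 1.96 for FCER1G. Its ITGAM was not well above background and ranked 12 among the 27 arrays. The second array was high for ITGB2, FCER1G and LYZ but not for CD14 or ITGAM.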

How the results depend on the processing

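The comparison of 140 d with 130 d in controls called 3 of the 5 markers, and also 3 under the other scalings, the authors' table, both other filters on dim probes, slide as a fixed or random block, only the groups compared, a robust fit and the mean of a gene's probes. It called 1 marker (FCER1G) with normexp, where 536 of all probes passed in place of 2442, and 0, 0 and 0 within slides 2, 3 and 4, each with fewer arrays. Leaving out each array in turn gave 2 to 3 markers, with LYZ lost without control 130 d replicate 3, and 1650 to 3205 of all probes. The replicate block left 3 markers and 2499 probes, and the deviations of same-numbered arrays correlated over 0.1 in 13 of 37 pairs (median r 0.0508), against 22 of 196 pairs with neither number nor slide in common (median -0.0301). Pairs that shared a slide, some of them same-numbered too, correlated over 0.1 in 26 of 64 (median r 0.0552). Number and slide were thus not told apart. Since not every same-numbered pair did, the numbers were not taken as pairs. In the other 4 comparisons 0 of the 5 markers passed under each alternative run. At 130 d the cortisol difference of each marker had the opposite sign under 1 alternative, slide 4 alone for ITGB2, FCER1G and LYZ and normexp for CD14 (0.16) and ITGAM (0.61). The difference of the cortisol effects turned under the same alternatives, to -0.32, -0.09 and -0.60 on slide 4 and to -0.02 and -0.48 with normexp. At 140 d the cortisol difference kept its sign under each alternative for FCER1G. It turned under 1 for ITGB2, to -0.18 on slide 4, with 1 array of each arm. For CD14, ITGAM and LYZ it turned under 3, 4 and 5 alternatives, with lowest values of -0.22, -0.20 and -0.15. Over all alternatives except single arrays left out, the control age difference ranged from -1.63 to -0.53 for ITGB2, -1.88 to -0.82 for FCER1G and -2.18 to -0.57 for LYZ. For the other myeloid genes, the count with cortisol between the ages was 5 in all, 8 without cortisol 140 d replicate 4 and 9 without both that array and control 130 d replicate 3, and in controls it was 9 to 10. Of all 12770 probes, 1719, 2419 and 2382 were called with cortisol in the same order of settings, and 1650 to 3205 in controls. These settings were added after the data were seen. ITGAM was not tested when probes had to be well above background on every array, and the difference between ages needs all 4 groups. With normexp the median of all probes at 130 d was 0.20, so marker differences there are read relative to it. Dim signal limits ITGAM most, since 18 of its 27 values were not well above background.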

Other observations

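Sheep carry several lysozyme genes, some of them known for digestive use in ruminants. A probe for lysozyme 2a (LOC443321), which shares no run of over 6 bases with the LYZ probes, was well above background on all 27 arrays. Its log2 difference between 140 d and 130 d in controls was -1.02 ± 0.39 (limma adjusted p = 0.0656), short of the test that LYZ passed, and with cortisol it was -0.07 ± 0.40. Cortisol against control gave -0.94 ± 0.42 at 130 d (limma adjusted p = 1.0) and 0.01 ± 0.37 at 140 d. SELP, the platelet and endothelial selectin that slows white cells on the vessel wall, differed between the arms by 0.83 ± 0.45 at 140 d (limma adjusted p = 0.808) and did not pass in any comparison.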
